A study of Homo sapiens with 12 samples.

Results

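The genes described here encode the subunits, activators, inhibitor and assembly chaperones of the proteasome, followed across 4 treatments of KP4 cells. They were taken by symbol, as every gene whose name is PSM, a letter from A to G and a number, and kept if the mean over the 12 libraries was at least 10 normalized counts. Among 36601 deposited genes, 48 carried such a symbol, and 46 passed. PSMA8, a testis form of an alpha subunit, and PSMB11, a thymus form of a beta subunit, did not, with means of 0.239 and 0.0853 normalized counts. The rule used no difference between treatments.

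KP4 is an established human pancreatic cancer cell line, labelled as a ductal cell carcinoma with wild-type genotype. The cells received for 24 h either the vehicle DMSO, 10 mM metformin (Met), 5 nM FK866 (FK) or both drugs at these doses (Met+FK), with 3 libraries per treatment from which ribosomal RNA had been depleted. Metformin inhibits complex I of the respiratory chain, FK866 inhibits NAMPT, the enzyme that recycles nicotinamide to NAD, and the study asked what the drugs do together. The labels number the libraries of a treatment 1 to 3 but do not say that they came from separate cultures, so the p-values measure the spread between these libraries, which may be technical.

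The proteasome degrades proteins that carry chains of ubiquitin. Its barrel-shaped core particle has outer rings of alpha subunits (PSMA) and inner rings of beta subunits (PSMB), of which PSMB6, PSMB7 and PSMB5 carry the active sites. PSMB9, PSMB10 and PSMB8 replace these when interferon induces the immunoproteasome, whose peptides are presented on MHC class I. The regulatory particle binds, unfolds and feeds in the substrate. Its base holds a ring of ATPases (PSMC) and several PSMD subunits, and its lid holds other PSMD subunits that include the deubiquitinase PSMD14. PSME proteins are alternative activators of the core, PSMF1 is an inhibitor, PSMG1 to PSMG4 help to assemble the core, and PSMD5, PSMD9 and PSMD10 help to assemble the base. Cells adjust the subunit genes together, mainly through the transcription factor NFE2L1, which is itself degraded by the proteasome.

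The libraries held between 30667735 and 41052203 counted read pairs. Of 7 ductal epithelial markers 6 had a mean of at least 10 normalized counts, yet the label was not borne out by all of them. KRT18 lay between 9398 and 18721 normalized counts, whereas KRT19 lay between 14.6 and 75.01, and EPCAM between 3.78 and 12.5. The mesenchymal marker VIM lay between 93661 and 121917. The acinar marker CPA1 and the fibroblast marker DCN were at 0 in all libraries. Of 4 leukocyte markers 1 reached a mean of 10, PTPRC, with 101.4 to 304 normalized counts. The summed leukocyte markers, mostly PTPRC, lay between 153 and 187 in Met and between 214 and 317 in DMSO. Of 3 fibroblast markers 1 reached a mean of 10, COL1A1, and LUM had a mean of at most 0.328 in any treatment. The summed fibroblast markers, nearly all COL1A1, lay between 52.9 and 80.2 in Met and between 129 and 175 in DMSO. In FK they lay between 228 and 308. The part of these leukocyte and fibroblast markers in the results below was not tested.

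All results below come from normalized counts, that is read pairs per gene divided by a size factor of the library. Levels of different genes were compared per kilobase (kb) of the gene's canonical transcript. The highest levels in DMSO were those of the alpha subunit PSMA7, with 14647 ± 447 normalized counts per kb (SD, n = 3, as for all mean ± SD values here), and of PSMB7, with 14613 ± 957. These 2 neighbours in the order did not differ beyond their spread. The lowest level was that of the inhibitor PSMF1, with 470 ± 17.5 normalized counts per kb. By group, the median level per kb in DMSO was 9739 for the 7 constitutive beta subunits, 6461 for the 7 alpha subunits, 3546 for the 6 ATPases and 3688 for the 11 other subunits of base and lid. It was 1360 for the 4 core chaperones and 997 for the 3 base chaperones. The 3 inducible beta subunits lay between 1094 and 1283 normalized counts per kb, below each of the 7 constitutive ones, of which PSMB2 was the lowest with 2675. With the length of all annotated exons in place of the canonical transcript the order of single genes changed, PSME2 for example moving from rank 7 to rank 20, while PSMA7 and PSMB7 kept ranks 1 and 2.

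Together the 46 genes made up 0.923% ± 0.0257 of all normalized counts in DMSO and 0.724% ± 0.00494 in Met. In FK they made up 0.873% ± 0.0419 and in Met+FK 0.708% ± 0.0128. The summed normalized counts of the 46 genes were 332700 ± 14417 in DMSO, 239734 ± 2748 in Met, 309507 ± 17335 in FK and 241044 ± 6419 in Met+FK. Every library with metformin therefore lay below every library without it, with sums of at most 247651 against at least 297190. Exact permutation of 3 libraries against 3 cannot give a p-value under 0.1, so the tests below are those of single genes in a model fitted across all 15376 genes with a mean of at least 10.

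**Figure D1:**
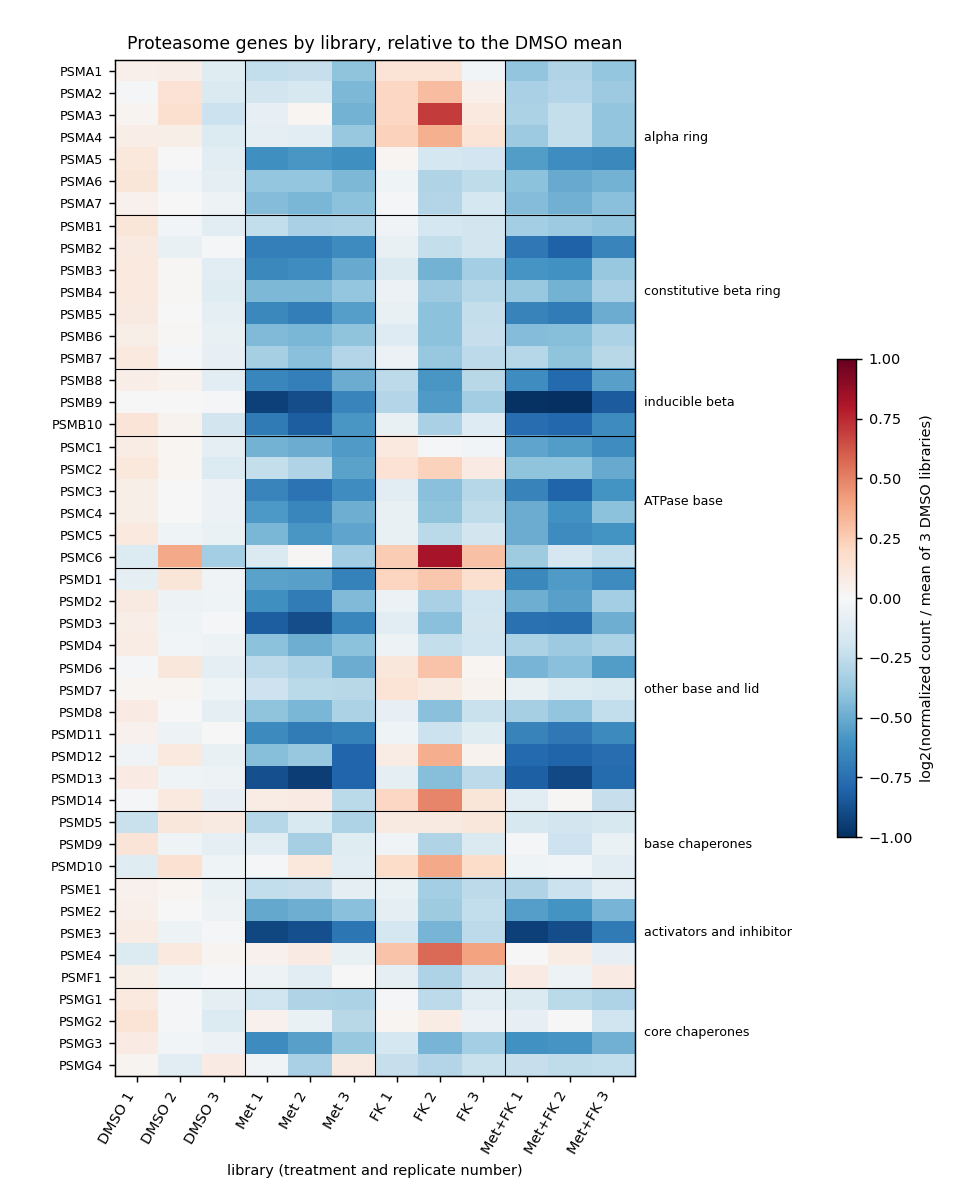
Each row is 1 of the 46 proteasome genes and each column 1 of the 12 libraries, and colour gives log2 of the normalized count over the mean of the 3 DMSO libraries (blue lower, red higher). The 6 columns with metformin are blue in nearly all rows, whereas the FK columns hold red and blue rows side by side.

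The comparison of Met with DMSO asked what metformin alone does to these genes. In it, 35 of the 46 genes were lower and 0 were higher (limma-trend on log2(normalized count + 1), adjusted p under 0.05 over all 15376 genes). Of all genes tested 25.9% were lower and 24.9% higher by the same rule. Among the 8775 genes whose mean lay within the range of the 46, 33.8% were lower. The median log2 fold change was −0.43 for the 46 genes and 0.012 for all genes, and single proteasome genes lay between −0.87 and 0.02. The 3 Met libraries all lay below the 3 DMSO libraries for 36 of the 46 genes, against 29.4% of all genes. With a fold change over 1.5 as a second condition 12 of the 46 genes were lower, against 10.2% of all genes, so that most of the decreases were modest. In bulk RNA, fewer cells that express a gene and less RNA per cell cannot be told apart.

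The decrease took in the core and the regulatory particle. Lower in Met were all 7 constitutive beta subunits (median log2 fold change −0.44), all 3 inducible beta subunits (median −0.70) and 5 of 7 alpha subunits (median −0.29). Of the regulatory particle, 5 of 6 ATPases (median −0.52) and 10 of 11 other base and lid subunits (median −0.53) were lower. Among these ATPases is PSMC1, of whose exon bases 76.1% overlap a gene of the opposite strand, so its counts are uncertain. The auxiliary genes were called less evenly, with 1 of 3 base chaperones (median −0.19), 2 of 5 activators and inhibitor (median −0.19) and 2 of 4 core chaperones (median −0.18). Whether these groups differ from each other was not tested.

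PSMD13, a subunit of the lid, had the lowest fold change. Its normalized counts were 11665, 10711 and 10640.3 in the 3 DMSO libraries and 5987, 5717 and 6363 in the 3 Met libraries. The ranges did not overlap, and PSMD13 fell by 45.3% in Met (log2 fold change −0.87, SE 0.083, limma-trend adjusted p = 1.22e-06).

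PSME3 encodes the activator of nuclear proteasomes, which acts without ATP or ubiquitin. It had 13051, 11955 and 12234 normalized counts in DMSO and 6612, 6737 and 7514 in Met. The lowest DMSO library was well above the highest Met library, and PSME3 fell by 44.03% (log2 fold change −0.84, SE 0.086, adjusted p = 2.47e-06).

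The active-site subunits were lower in both their constitutive and their inducible form. PSMB5, which carries the chymotrypsin-like activity, had 8548, 8026 and 7547 normalized counts in DMSO and 5141, 4978 and 5477 in Met, and fell by 35.3% (log2 fold change −0.63, adjusted p = 4.66e-05). PSMB6, the caspase-like subunit, had a log2 fold change of −0.44 (adjusted p = 0.000289). PSMB7, the trypsin-like subunit, had one of −0.35 (adjusted p = 0.00272). None of the 3 overlapped between Met and DMSO.

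Their inducible counterparts were lower as well. PSMB9, the counterpart of PSMB6, had 1196, 1195 and 1181 normalized counts in DMSO and 624, 643 and 755 in Met (log2 fold change −0.82, SE 0.0999, adjusted p = 1.17e-05). PSMB10, the counterpart of PSMB7, had 1171, 1095 and 939 in DMSO and 655, 602 and 713 in Met (log2 fold change −0.70, adjusted p = 7.12e-05). PSMB8, the counterpart of PSMB5, had 1508, 1476 and 1341 in DMSO and 917, 897 and 1023 in Met (log2 fold change −0.61, adjusted p = 0.000201). In each of the 3 genes every Met library lay below every DMSO library. Of PSMB8, whose deposited span on chromosome 6 overlaps that of PSMB9, 21.3% of the exon bases of PSMB8 overlap genes of the opposite strand, while 39.4% of those of PSMB10 overlap a gene of the same strand. Since the strand setting of the counting is not given in the sources used here, counts in these stretches are uncertain.

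The ratio of an inducible subunit to its constitutive counterpart, both per kb, is a relative measure of immunoproteasome message. The percentages and their order depend on the transcript length used, while comparisons of 1 ratio between treatments do not. With the length of all annotated exons, levels per kb in DMSO were 414 for PSMB8 and 5191 for PSMB5. They were 357 for PSMB9 and 5546 for PSMB6, and 657 for PSMB10 and 8042 for PSMB7. PSMB9 stood at 12.03% ± 0.475 of PSMB6 in DMSO and at 9.199% ± 0.792 in Met, and the ranges, 11.6% to 12.5% and 8.57% to 10.1%, did not overlap. PSMB10 stood at 7.47% ± 0.438 of PSMB7 in DMSO and at 5.85% ± 0.260 in Met, also without overlap. PSMB8 stood at 16.7% ± 0.370 of PSMB5 in DMSO and at 16.9% ± 0.412 in Met, and here the ranges overlapped. The differences between these ratios were not tested.

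**Figure D2:**
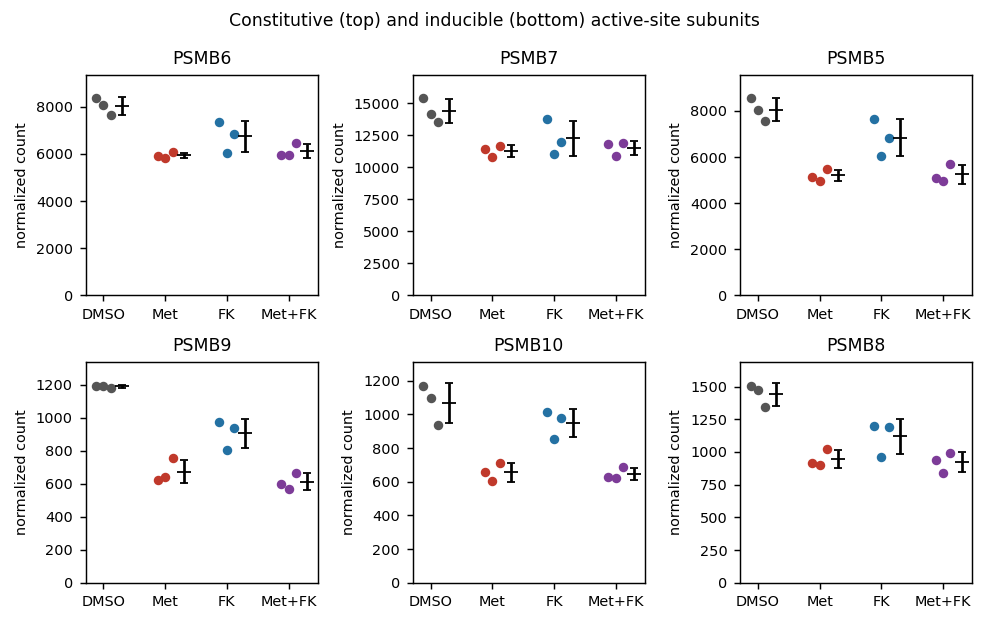
Normalized counts (linear axes from 0) of the constitutive active-site subunits PSMB6, PSMB7 and PSMB5 and, below each, of its inducible counterpart PSMB9, PSMB10 and PSMB8, with 3 libraries per treatment as points and the mean ± SD beside them. Met and Met+FK points lie below the DMSO points in all 6 panels, and for PSMB9 they stand between 568 and 755 against 1181 to 1196.

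Among the activators, PSME2, which forms the interferon-inducible ring with PSME1, fell in Met by 27.9% (log2 fold change −0.47, adjusted p = 0.000108). Its partner PSME1 had 3698, 3644 and 3420 normalized counts in DMSO and 3018, 3063 and 3351 in Met, and its log2 fold change of −0.19 did not pass the test (adjusted p = 0.0698). PSME4, a large activator linked to DNA repair and spermatogenesis, had a log2 fold change of 0.02 (SE 0.086, adjusted p = 0.854). The inhibitor PSMF1 had one of −0.05 (adjusted p = 0.587).

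Of the core chaperones, which act as the pairs PSMG1 with PSMG2 and PSMG3 with PSMG4, one member of each pair was lower. PSMG3 fell in Met by 30.1% (log2 fold change −0.52, adjusted p = 0.000313) and PSMG1 by 17.1% (log2 fold change −0.27, adjusted p = 0.0123). PSMG2 and PSMG4 had log2 fold changes of −0.10 and −0.09, with adjusted p-values of 0.431 and 0.516, and their libraries overlapped between Met and DMSO. The difference between the members of a pair was not tested. Without DMSO replicate 1 the log2 fold change of PSMG1 was −0.22 and its adjusted p 0.0628.

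The smallest changes that still passed were those of PSMA2, an alpha subunit, of the base chaperone PSMD5 and of the lid subunit PSMD7. PSMA2 had 9184, 10248 and 8365 normalized counts in DMSO and 8143, 8301 and 6791 in Met (log2 fold change −0.26, adjusted p = 0.0317). That call was lost without DMSO replicate 1 (adjusted p = 0.0685), without DMSO replicate 2 (0.132) and without Met replicate 3 (0.144). PSMD5 had a log2 fold change of −0.24 (adjusted p = 0.0283) with overlapping libraries, and its call was lost without DMSO replicate 2 or 3 and without Met replicate 1 or 3, where adjusted p-values lay between 0.0782 and 0.118. PSMD7 had a log2 fold change of −0.25 (adjusted p = 0.00359) and kept its call without any 1 library, but 31.2% of its exon bases overlap a gene on the opposite strand.

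The scaling of the libraries moved these values. When all libraries were scaled to the same total, the median of all genes in Met against DMSO shifted from 0.012 to 0.13 on the log2 scale, that of the 46 genes from −0.43 to −0.31, and 30 of them were lower and 0 higher. Under this scaling 19.03% of all genes were lower and 34.1% higher. The sign turned from negative to positive for 5 of the 46 genes, PSMD10, PSMD14, PSMF1, PSMG2 and PSMG4, of which 0 had been called. Relative to the median of all genes, the 46 genes stood lower by a like amount under both scalings.

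**Figure D3:**
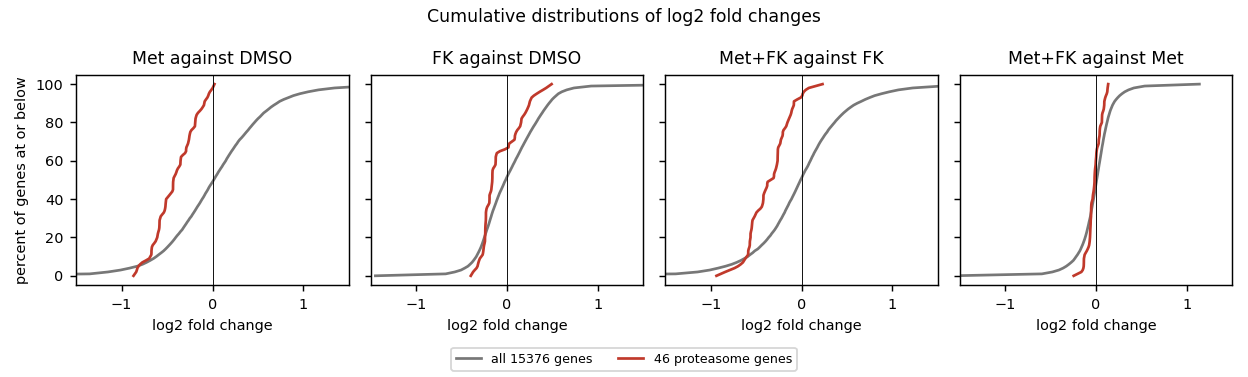
Cumulative share of genes (percent) against log2 fold change for the 46 proteasome genes (red) and all 15376 genes tested (grey) in 4 comparisons of 3 libraries with 3. Over most of its length the red curve lies to the left of the grey one for Met against DMSO (medians −0.43 and 0.012) and for Met+FK against FK (−0.34 and −0.011), and close to it for Met+FK against Met (−0.017 and 0.0063).

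NFE2L1 and its relative NFE2L2 act on target genes through the antioxidant response element, and promoters of subunit genes are known to hold it, so the promoters of the 46 genes were searched for this motif. RefSeq promoters (GRCh38.p14, 250 bases before to 50 after the start) were found for 40 of the 46 genes. The motif TGACNNNGC, read on both strands, occurred in 13 of 40 (32.5%), in 15.1% of the 10829 promoters of genes tested here and in 13.6% of all 27305 promoters. The windows shown are those of the 4 genes with the motif upstream of the start and a log2 fold change under −0.5 in Met against DMSO, and that of PSME4, which has the motif and a log2 fold change of 0.02. PSMD3 and PSMD12, a lid subunit each, were chosen after their values were seen. Each window runs 5′ to 3′ along the strand of the gene, 20 bases on either side of the motif, which is in capitals.
PSMB3, chr17:38752617-38752665, plus strand, motif 104 to 96 bases before the start: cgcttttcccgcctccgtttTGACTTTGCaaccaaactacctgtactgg
PSMB9, chr6:32854024-32854072, plus strand, motif on the other strand, 148 to 140 bases before the start: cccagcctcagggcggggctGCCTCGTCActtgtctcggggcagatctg
PSMD3, chr17:39980750-39980798, plus strand, motif 37 to 29 bases before the start: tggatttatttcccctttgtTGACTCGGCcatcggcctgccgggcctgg
PSMD12, chr17:67366714-67366762, minus strand, motif 165 to 157 bases before the start: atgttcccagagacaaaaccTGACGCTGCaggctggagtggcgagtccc
PSME4, chr2:53970999-53971047, minus strand, motif on the other strand, 34 to 26 bases before the start: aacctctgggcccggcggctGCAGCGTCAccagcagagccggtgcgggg
A match is a stretch of letters and not a measured binding site. For PSMB9 and PSMD12 the RefSeq start lies inside the span that the deposited table gives the gene.

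Of the 13 genes with it 9 were lower in Met, with a median log2 fold change of −0.47, and of the 27 without it 20 were lower, with a median of −0.40. Of the other motifs searched in the same way, CCAAT, bound by NF-Y, occurred in 18 of 40 promoters (45%) and in 36.4% of those of genes tested. GAAANNGAA, the core of the interferon-stimulated response element, occurred in 7 (17.5% against 6.36%). These were PSMA4, PSMB4, PSMB10, PSMC2, PSME1, PSME2 and PSMG4, and no match was found for PSMB8 or PSMB9. Of the 7 genes with this element 4 were lower in Met, with a median log2 fold change of −0.35. Of the 33 without it 25 were lower, with a median of −0.51. CACGTG, the E-box bound by MYC, occurred in 3 (7.5% against 10.0%), and TGATGNAA, an element of ATF4 and C/EBP proteins, in 1 (2.5% against 1.76%). None of these shares was tested.

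The comparison of FK with DMSO asked what FK866 alone does. Here 2 of the 46 genes were higher and 9 lower (limma-trend, adjusted p under 0.05), against 11.3% and 9.84% of all genes, and none reached a fold change of 1.5. The median log2 fold change was −0.16 for the 46 genes and −0.016 for all genes, with a range from −0.40 to 0.49. The sign was split, with 30 genes below 0 and 16 above it.

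Lower in FK were the inducible subunits PSMB9 (log2 fold change −0.40, SE 0.0999, adjusted p = 0.0235) and PSMB8 (−0.37, adjusted p = 0.0292), the core chaperone PSMG3 (−0.33, adjusted p = 0.0297) and PSMB3, a beta subunit without an active site (−0.32, adjusted p = 0.0329). PSME3 (−0.30, adjusted p = 0.0317), PSMD13 (−0.26, adjusted p = 0.0419), PSMB6 (−0.26, adjusted p = 0.0354) and PSME2 (−0.23, adjusted p = 0.0408) were lower too. The ninth, PSMC3, an ATPase of the base, was named after its values were seen (−0.27, adjusted p = 0.0383). For PSMB9 the FK libraries had 972, 806 and 938 normalized counts, all below the DMSO libraries and all above those with metformin.

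The 2 genes higher in FK were PSME4 and PSMD1, the largest subunit of the base. PSME4 had 4516, 5301 and 5054 normalized counts in DMSO and 6052, 7354 and 6558 in FK, without overlap, and its level rose by 34.1% (log2 fold change 0.42, SE 0.086, adjusted p = 0.0136). Its Met and Met+FK libraries lay between 4695 and 5234 normalized counts, within the range of DMSO. PSMD1 had 8817, 10281 and 9208 in DMSO and 10960, 11398 and 10561 in FK (log2 fold change 0.22, adjusted p = 0.0443).

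The direction of the FK values went with the GC content of the transcripts. The 46 transcripts held 36.4% to 61.7% GC, with a median of 48.5% as for all genes tested. The 16 genes above 0 in FK against DMSO had a median GC content of 41.4%, and the 30 genes below 0 one of 52.1%. Across the 46 genes, which share their libraries and are not independent, Pearson's r between GC content and log2 fold change was −0.78 in FK against DMSO and −0.48 in Met against DMSO, beside −0.60 and −0.29 across 15324 genes with a GC value. Once the dependence on GC and length was taken out of each library, r was −0.021 in FK and 0.12 in Met. In FK against DMSO 8 of the 46 genes were then lower and 0 higher (4.62% of all genes higher, 5.44% lower), only 2 of the 11 earlier calls, PSMB9 (adjusted p = 0.039) and PSME3 (adjusted p = 0.0191), were kept, and the median was −0.071. PSME4 then had a log2 fold change of 0.15 (adjusted p = 0.0524). In Met against DMSO 39 of the 46 genes were lower and 0 higher after the same removal, the 35 earlier calls among them, against 29.8% and 27.2% of all genes, with a median of −0.35.

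**Figure D4:**
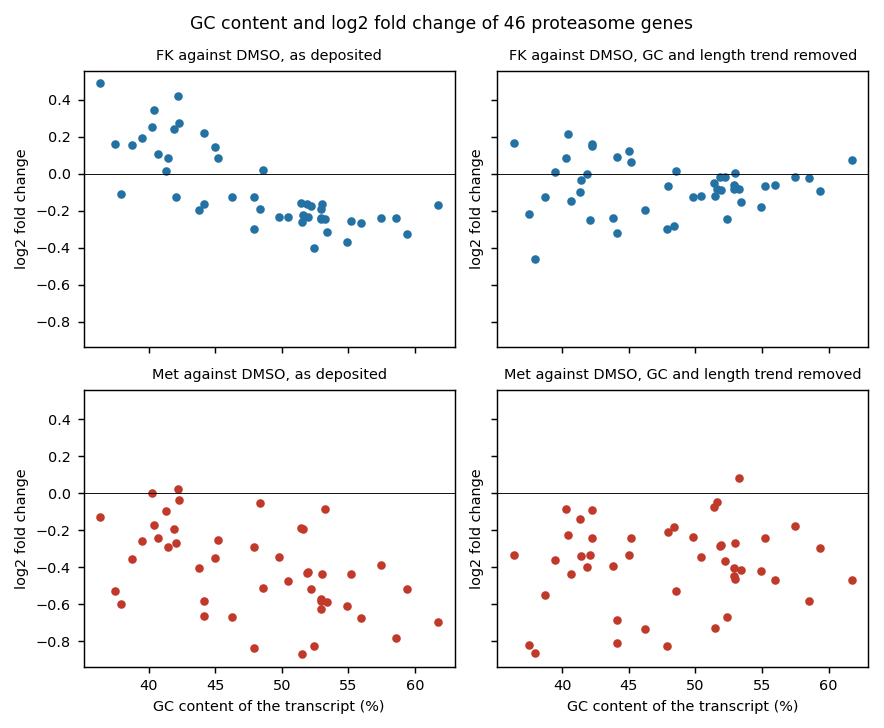
Log2 fold change of the 46 proteasome genes against GC content of the canonical transcript (percent), for FK and Met against DMSO, before (left) and after (right) removal of the dependence on GC and length within each library. In FK the points fall from left to right (r = −0.78) and lie around 0 after the removal (r = −0.021), whereas in Met nearly all stay below 0.

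Single libraries and the pairing of replicates moved the FK calls. Of the 46 genes 11 were called with all libraries. Without DMSO replicate 1 there were 0 calls, against 0.696% of all genes higher and 0.169% lower. Without DMSO replicate 2 there were 12, against 16.6% and 10.3%, and without DMSO replicate 3 there was 1, against 1.70% and 0.774%. Without FK replicate 1 there were 26, 3 higher and 23 lower, against 16.9% and 15.2% of all genes. Without FK replicate 2 there was 1, against 1.14% and 0.397%, and without FK replicate 3 there were 4, against 8.66% and 5.19%. Libraries of DMSO and FK with the same number deviated together, and a fit blocked by replicate number called 9 higher and 25 lower, among them all 11 earlier calls, where 23.3% of all genes were higher and 21.3% lower. With the block and the GC and length trend removed 3 were higher and 12 lower, against 8.37% and 10.9% of all genes.

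The comparison of Met+FK with DMSO gave values close to those of metformin alone. Of the 46 genes 35 were lower and 0 higher (limma-trend, adjusted p under 0.05), where 26.1% of all genes were lower and 26.1% higher. With a fold change over 1.5 as a second condition 13 were lower, against 11.3% of all genes. The median log2 fold change was −0.44, beside 0.014 for all genes, and the range ran from −0.96 to 0.04. Lower were all 7 constitutive and all 3 inducible beta subunits, 6 of 7 alpha subunits, 5 of 6 ATPases and 9 of 11 other base and lid subunits. Of the auxiliary genes, 0 of 3 base chaperones, 3 of 5 activators and inhibitor and 2 of 4 core chaperones were lower. This comparison shares its DMSO libraries with that of Met.

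PSMB9 had the lowest fold change of Met+FK against DMSO, with 601, 568 and 667 normalized counts in Met+FK. All 3 libraries lay far below those of DMSO, and PSMB9 fell by 48.6% (log2 fold change −0.96, SE 0.0999, adjusted p = 2e-06). PSME3 and PSMD13 fell by 44.2% (log2 fold change −0.84, adjusted p = 1.77e-06) and 43.8% (log2 fold change −0.83, adjusted p = 1.42e-06). The ratio of PSMB9 to PSMB6 per kb was 8.10% ± 0.347 in Met+FK, and that of PSMB10 to PSMB7 was 5.65% ± 0.247, both without overlap with DMSO. That of PSMB8 to PSMB5 was 16.4% ± 0.768 and overlapped with DMSO. In FK the ratio of PSMB8 to PSMB5 lay between 14.6% and 16.2%, below the 16.4% to 17.1% of DMSO, and that of PSMB9 to PSMB6 between 10.7% and 11.1%, also below DMSO. The ratio of PSMB10 to PSMB7 in FK, 7.80% ± 0.386, overlapped with DMSO. PSME4, with a log2 fold change of 0.0041, and PSMF1, with one of 0.04, did not pass the test (adjusted p = 0.972 and 0.696).

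Of the smallest changes that passed, PSME1 had a log2 fold change of −0.21 (adjusted p = 0.0489) and lost its call without any 1 of the DMSO libraries or of Met+FK replicates 1 and 2 (adjusted p between 0.0538 and 0.182). PSMG1 had one of −0.24 (adjusted p = 0.0225) and lost its call without DMSO replicate 1, Met+FK replicate 2 or Met+FK replicate 3 (adjusted p between 0.0713 and 0.101). PSMB7, the third of these, had a log2 fold change of −0.32 (adjusted p = 0.00456) and kept its call throughout.

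**Figure D5:**
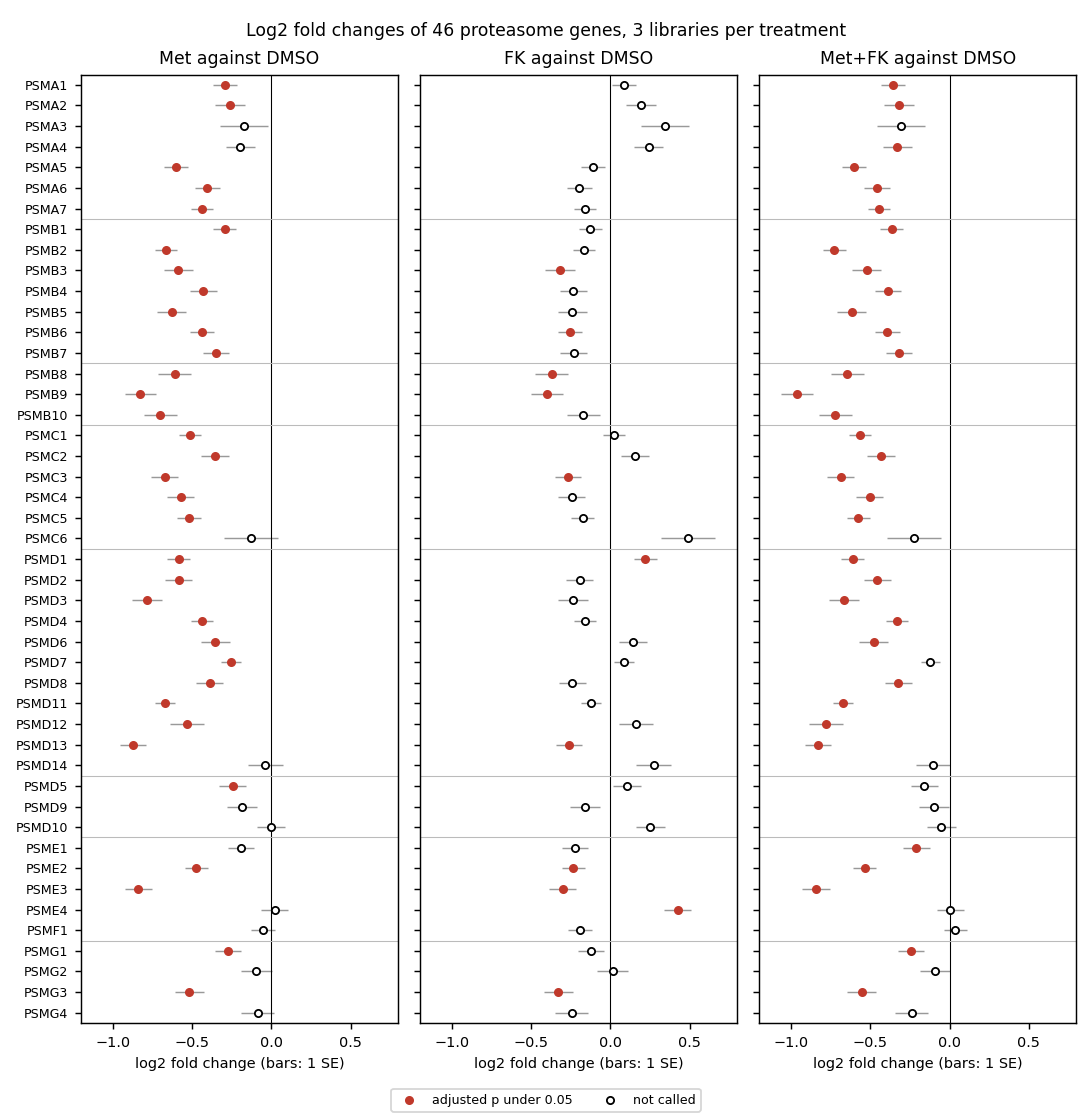
Log2 fold changes of the 46 proteasome genes against DMSO, with bars of 1 SE from the fit across all genes, filled red where the adjusted p was under 0.05 and open otherwise. Thin lines part the groups in the order alpha ring, constitutive beta, inducible beta, ATPases, other base and lid, base chaperones, activators and inhibitor, core chaperones. In Met and Met+FK 35 filled points each lie left of 0, and in FK 9 lie left and 2 right of it.

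Met+FK against FK asks for the effect of metformin in cells that also received FK866, and it shares no library with Met against DMSO. Both come from the same fit, however, and share its estimate of the spread of each gene. Of the 46 genes 33 were lower and 1 was higher (limma-trend, adjusted p under 0.05), against 21.7% and 20.5% of all genes, and 7 were lower with a fold change over 1.5, against 9.29% of all genes. The median log2 fold change was −0.34. Lower in both comparisons were 27 genes, 77.1% of the 35 lower in Met against DMSO and 81.8% of the 33 here. Of all genes lower in Met against DMSO 56.5% were lower in both, which was 67.7% of those lower in Met+FK against FK. The log2 fold changes of the 2 comparisons correlated less across the 46 genes (Pearson's r = 0.38) than across all genes (r = 0.76), as a description, since genes share their libraries. PSMD1 fell by 43.8% from FK to Met+FK (log2 fold change −0.83, adjusted p = 4.94e-07), from 10973 ± 419 to 6169 ± 170 normalized counts. PSME4 fell by 25.2% (log2 fold change −0.42, adjusted p = 0.00117). The gene that rose was the inhibitor PSMF1, with 3604, 3099 and 3364 normalized counts in FK and 4057, 3689 and 4055 in Met+FK (log2 fold change 0.23, adjusted p = 0.0224). Its call was lost without FK replicate 2 or 3, without Met+FK replicate 1 or 3, and when only the libraries compared were fitted. The constitutive subunits PSMB6 and PSMB7 had log2 fold changes of −0.14 and −0.09 and did not pass the test (adjusted p = 0.168 and 0.428). Between Met and FK themselves 32 of the 46 genes were lower in Met and 0 higher, against 19.5% and 17.2% of all genes.

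Met+FK against Met asks what FK866 adds to metformin, and here no difference in these genes was detected. Of the 46 genes 0 were higher and 0 lower (limma-trend, adjusted p under 0.05), against 0.0911% and 0.0065% of all genes. EdgeR and DESeq2 on the recovered read pairs also called 0. The fit blocked by replicate number called 0, against 0.468% of all genes higher and 0.312% lower. With the block and the GC and length trend removed 1 was higher, PSMD7 (adjusted p = 0.0433), and 1 lower, PSMD12 (adjusted p = 0.0347), against 1.86% and 1.55% of all genes. The median log2 fold change was −0.017 and the range ran from −0.25 to 0.13, with 43 of the 46 genes overlapping between the groups. Of the rest 1 lay lower and 2 higher in all 3 Met+FK libraries, against 5.56% and 7.88% of all genes. For PSMB9, the log2 fold change of −0.14 had an SE of 0.0999, and for PSMB5 that of 0.01 had one of 0.089, so that changes of this size could not be told from 0.

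The interaction tested whether the effect of FK866 differed with and without metformin. Of the 46 genes 0 were higher and 0 lower (limma-trend, adjusted p under 0.05), against 0.0065% and 0.052% of all genes. The smallest p-values belonged to PSME4 (interaction −0.44 on the log2 scale, SE 0.121, adjusted p = 0.110), PSMB3 (0.38, SE 0.130, adjusted p = 0.111) and PSMA4, an alpha subunit (−0.38, SE 0.129, adjusted p = 0.111). EdgeR called 0 genes and DESeq2 1, where DESeq2 called 1.71% of all genes above 0 and 2.81% below it. Blocking by replicate number called 15 genes above 0 and 11 below it, against 15.5% and 16.5% of all genes. This block assumes the same replicate effect in all treatments, which the correlations given below did not bear out for replicate 1. Without FK replicate 1 the unblocked fit called 9 above 0 and 1 below it, against 6.37% and 5.63% of all genes. These values also went with GC content, with r = 0.78 across the 46 genes and 0.62 across 15324, and r = 0.038 across the 46 after the trend was removed. With that removal 0 genes were called, and with the block added 4 lay above 0 and 2 below it, against 3.73% and 2.41% of all genes. Whether the split between GC-rich and GC-poor transcripts arose in the cells or in the libraries was not tested.

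Proteins that work with the proteasome but carry other symbols were taken from a list of 33 symbols, of which 32 were tested. In Met against DMSO 7 were higher and 12 lower (limma-trend, adjusted p under 0.05, against the 24.9% and 25.9% of all genes), with a median log2 fold change of −0.094. In FK against DMSO 5 were higher and 6 lower, against 11.3% and 9.84% of all genes. In Met+FK against DMSO 9 were higher and 12 lower, against 26.1% and 26.1%, so that the share of higher genes was near that of all genes. In Met+FK against Met 0 were called.

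ADRM1, the ubiquitin receptor of the base, had 9088, 8782 and 8319 normalized counts in DMSO and 5525, 5479 and 6112 in Met (log2 fold change −0.61, adjusted p = 7.63e-05). POMP, the maturation factor of the core, had a log2 fold change of −0.50 (adjusted p = 0.00105) in Met. SEM1, a small lid subunit, had one of 0.0034 (adjusted p = 0.982). ADRM1 and POMP thus fell with the PSM genes, and for SEM1 the libraries overlapped. Other partners, chosen after their values were seen, went both ways. ECPAS had 7968 ± 121 normalized counts in DMSO and 11566 ± 436 in Met, and PAAF1 648 ± 11.3 and 763 ± 54.7, both higher without overlap. USP14 was lower without overlap, with 5513 ± 237 in DMSO and 4900 ± 143 in Met. For UCHL5 and AKIRIN2 the libraries overlapped.

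The RNA of NFE2L1, named above for its role in the control of subunit genes, was higher with metformin. Its part in the decrease of the subunit genes was not tested. NFE2L1 had 8463, 6838 and 8387 normalized counts in DMSO, 10689, 9614 and 11046 in Met and 11780.4, 11358 and 11224 in Met+FK. All 6 libraries with metformin lay above the 3 of DMSO, and the log2 fold change was 0.41 in Met (SE 0.084, adjusted p = 0.000961) and 0.54 in Met+FK (adjusted p = 8.42e-05). NFE2L2, the regulator of the oxidative stress response, had a log2 fold change of 0.72 in Met (adjusted p = 0.00286) and 0.61 in FK (adjusted p = 0.0313). SQSTM1, an autophagy receptor that binds ubiquitin and a target of NFE2L2, had 71711, 56286 and 56402 normalized counts in DMSO and 111077, 97945 and 106235 in Met (log2 fold change 0.78, adjusted p = 2.81e-05). RNA levels do not give the amount or the cleavage of the NFE2L1 protein, on which its activity depends.

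UBB, which encodes polyubiquitin, fell in Met. It had 38902, 39453 and 36384 normalized counts in DMSO and 21772, 23376 and 25424 in Met (log2 fold change −0.70, adjusted p = 2.59e-05). VCP, the segregase that hands ubiquitylated proteins to the proteasome, and its cofactors NPLOC4 and UFD1 were chosen after their values were seen. VCP had 34071, 29494 and 31869 normalized counts in DMSO and 16972, 16646 and 18890 in Met (log2 fold change −0.86, adjusted p = 1.22e-06). NPLOC4 (log2 fold change −0.85, adjusted p = 1.17e-05) and UFD1 (−0.54, adjusted p = 2.7e-05) were lower as well. The listed genes of this group did not all fall. UBXN1 had 2027 ± 140 normalized counts in DMSO and 2321 ± 106 in Met, and FAF1 had 4133 ± 125 and 4386 ± 117. In both, every Met library lay above every DMSO library. FAF2 was lower, with 7613 ± 328 in DMSO and 6154 ± 222 in Met.

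Beside the inducible subunits, 16 genes of antigen processing on MHC class I and its interferon control were examined. In Met against DMSO 1 was higher and 4 were lower, where 24.9% of all genes were higher and 25.9% lower, so that the share of lower genes was near that of all genes. In FK 1 was higher and 3 lower (11.3% and 9.84% of all genes), and in Met+FK against DMSO 2 were higher and 5 lower (26.1% and 26.1%). The median log2 fold change in Met was −0.091. The 5 called in Met were chosen after their values were seen. IRF1, the interferon-induced factor that acts on PSMB9, had 3775, 3635 and 3793 normalized counts in DMSO and 1997, 2123 and 2437 in Met (log2 fold change −0.78, adjusted p = 2.68e-05). NLRC5, the activator of MHC class I genes, had a log2 fold change of −0.50 (adjusted p = 0.00142). The peptide transporter gene TAP2 had one of −0.54 (adjusted p = 0.00011), the peptide loading gene TAPBP one of −0.30 (adjusted p = 0.0245), and B2M, the light chain of MHC class I, one of 0.20 (adjusted p = 0.0497). With the GC and length trend removed 5 of the 16 genes were higher and 6 lower in Met, against 27.2% and 29.8% of all genes. Without DMSO replicate 1, Met replicate 1 or Met replicate 2 there were 3 calls, all lower. In these settings 20.6% to 20.8% of all genes were higher and 21.7% to 21.9% lower.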

How the data were processed

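RNA was extracted with Trizol and RNeasy columns, depleted of ribosomal RNA, made into libraries with the Kapa RNA HyperPrep kit and sequenced as paired ends. The authors used cutadapt for trimming, STAR for alignment to the hg38 build and featureCounts for the number of read pairs in each gene, which they divided by DESeq2 size factors. The deposited values are therefore a signal, normalized read counts, with size factors between 0.867 and 1.21. Which annotation was used, and whether counting was by strand, is not given in the sources used here. Whole read pairs were recovered from 100% of the values within a tolerance of 0.01.

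Differences were tested by limma-trend (limma 3.58.1, R 4.3.3) on log2(normalized count + 1), all 12 libraries in 1 fit and 15376 genes whose mean reached 10, with Benjamini-Hochberg adjustment over these genes. A fold change is on this scale, which understates the change of low genes. A gene was called at an adjusted p under 0.05. The interaction was Met+FK minus Met less FK minus DMSO. The steps were tested on simulated data. Alternatives changed the pseudocount, filter, scaling, libraries fitted, replicate block, a loess trend (span 0.3) on GC and length, and the tool (edgeR 4.0.16, DESeq2 1.42.0). Counts of 9803 genes were 0 throughout.

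Deviations from the group means of same-numbered libraries correlated at 0.252, 0.420 and 0.219 between DMSO and FK. Between Met and Met+FK they correlated at 0.171, 0.200 and 0.226, so these numbers were taken as pairs. The replicate block, however, was fitted as an effect of the number common to all treatments, not within these pairs alone. With the GC and length trend removed the correlations between Met and Met+FK were 0.160, 0.0965 and 0.0736, of which the last 2 miss the minimum of 0.1. Without that removal replicate 1 correlated at 0.0129 between DMSO and Met and at 0.0461 between FK and Met+FK, below the same minimum. Replicates 2 and 3 reached at least 0.142 in these comparisons. Blocked calls between treatments with and without metformin, and those of the interaction, rest on the common effect, which was not tested. The pairing comes from the data, since the labels do not say what a number shares. Replicates of a treatment differed by 5.31 to 46.8 in chi-square per degree of freedom, so none was counted as a duplicate.

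The members and lists were chosen with earlier results of these data known. Genes named are the 3 largest and 3 smallest log2 fold changes among called members in Met, FK and Met+FK against DMSO and in Met+FK against Met, PSMB5 to PSMB10, PSME1 to PSME4, PSMF1, PSMG1 to PSMG4, the 3 smallest interaction p-values, and the partners POMP, ADRM1, SEM1, NFE2L1, NFE2L2, UBB and SQSTM1. A further gene of the rule is not reported here. Transcript lengths, GC content and exon overlaps are from GENCODE 44 and promoters from RefSeq (GRCh38.p14).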

Additional observations from a re-analysis of the deposited data

How the results depend on the processing

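In Met and Met+FK against DMSO between 30 and 41 and between 33 and 40 of the 46 genes were called over all alternatives, 0 of them higher. With all libraries scaled to the same total (30 and 33 calls) 19.03% and 21.4% of all genes were lower. With the block and the GC and length trend removed (41 and 40 calls) 32.1% and 33.1% of all genes were lower. FK against DMSO (11 calls) was less stable. It had 4 calls when all genes with any value above 0 were tested, of which 3.66% were higher and 2.73% lower. It had 0 when only the libraries compared were fitted, against 0.722% and 0.267% of all genes. With the replicate block it had 34, against 23.3% and 21.3% of all genes. When single libraries were left out it had 0 to 26, with the shares of all genes given above. Met+FK against Met (0 calls) had 2 with the block and the GC and length trend removed, against 1.86% of all genes higher and 1.55% lower. The interaction (0 calls) had 26 with the block, against 15.5% of all genes above 0 and 16.5% below it. It had 6 with the block and the trend removed, against 3.73% and 2.41%, and 1 with DESeq2, against 1.71% and 2.81%. Without single libraries it had 0 to 10, the 10 without FK replicate 1, against 6.37% and 5.63% of all genes. The causes were not tested. Named calls kept their direction in all checks and their side of the threshold in 273 of 288 for Met, 112 of 180 for FK and 273 of 288 for Met+FK against DMSO.

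For the partner and antigen processing lists, alternatives were added after seeing the data. Partner calls in FK against DMSO (11) became 2 with all genes and 0 with only the libraries compared. They became 24 with the replicate block, 6 with the trend removed, and 0 to 15 without single libraries. The shares of all genes called in these settings are given above for FK against DMSO. Antigen processing calls in Met against DMSO (5 calls, 3 to 5 without single libraries) became 11 with the trend removed and 13 with the block added. In Met+FK against DMSO (7 calls, 4 to 7) they became 13 and 13. Of all genes 27.2% were higher and 29.8% lower in Met with the trend removed, and 29.6% and 32.1% with the block added. In Met+FK these shares were 29.5% and 30.9%, and 31.5% and 33.1%. Without 1 library of the groups compared, 20.6% to 25.3% of all genes were higher in Met and 21.7% to 26.5% lower. In Met+FK 21.5% to 25.6% were then higher and 22.0% to 24.9% lower. In FK against DMSO (4 calls) the antigen processing calls became 2 with all genes and 0 with only the libraries compared. With the block there were 9, with the trend removed 1, and without single libraries 0 to 6, beside the shares of all genes given above.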

Other observations

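Other transcripts carry symbols close to those of proteasome genes but encode no subunit, and the rule did not take them in. PSMC3IP, a recombination factor named for its binding to PSMC3, had a mean of 930 normalized counts and was lower in Met than in DMSO (log2 fold change −0.59, limma-trend adjusted p = 4.8e-05). The antisense RNAs PSMA3-AS1 and PSMG3-AS1 had means of 588 and 195 normalized counts. PSMB8-AS1, which overlaps PSMB8, had a mean of 5.31.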
